A study of Mus musculus with 17 samples.

Results

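The 26S proteasome genes were followed in cardiomyocytes of the ventricle from mice aged 60 days, with MBNL1 loss of function (KO) or as controls (WT). Genes were taken by symbol: every protein-coding gene whose symbol is Psm followed by a, b, c or d and a number, leaving out Psmb8, Psmb9 and Psmb10, the subunits of the immunoproteasome. The rule found 37 genes among 55486 gene IDs. They are 8 alpha and 8 beta genes of the 20S core, 6 ATPase and 11 non-ATPase genes of the 19S particle, 3 genes of 19S assembly chaperones (Psmd5, Psmd9 and Psmd10), and Psmc3ip. Psmc3ip was picked by its symbol alone: it encodes a partner of the recombinases of meiosis, not a proteasome subunit. Of the 37 genes, 36 passed the filter on low counts. Psmb11, the beta subunit of thymic cortical epithelium, did not pass, with 11 counts over all 17 libraries.

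Cells were plated on laminin for 3 h in medium with BDM, which blocks contraction, and then given 2 µg/mL actinomycin D, which blocks transcription. RNA was taken at 0 h (before actinomycin D), 4 h and 8 h, from 3, 3 and 3 KO libraries and 3, 2 and 3 WT libraries, to look for transcripts whose stability depends on MBNL1, a muscleblind protein that binds RNA. No cells cultured for 4 or 8 h without actinomycin D were analysed here, so time in culture and the drug cannot be told apart. The labels give neither the allele nor its promoter or strain, and do not say that libraries of a group came from separate mice, so p-values measure the spread between these libraries, which may be technical.

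Libraries held 17058419 to 17968827 counts, and 35.1 to 43.3% of them fell on mitochondrially encoded genes. Mbnl1 itself was not lower in the KO libraries: at 0 h it averaged 100 ± 5.37 CPM in KO and 87.5 ± 1.30 CPM in WT (log2 fold change 0.19 ± 0.05, adjusted p = 8.1e-04, edgeR). Esr1, the oestrogen receptor alpha gene, had 36443 to 46057 counts in each KO library, against 0 to 57 in each WT library. No cardiomyocyte marker was at 0 in any library, and the 10 markers summed to 55776 to 89634 CPM. Markers of other cells were far lower and were uneven between groups. At 0 h the 8 endothelial markers summed to 127 to 146 CPM in KO, against 183 to 192 CPM in WT, and the 8 macrophage markers to 27.7 to 30.5 CPM in KO, against 63.0 to 72.1 CPM in WT. The 8 fibroblast markers summed to 34.4 to 37.5 CPM in KO, against 66.9 to 68.6 CPM in WT, and the 4 erythroid markers to 4.14 to 5.94 CPM in KO, against 6.56 to 9.02 CPM in WT. By 8 h the endothelial sum was 36.2 to 40.3 CPM in KO and 39.4 to 42.0 CPM in WT, and the macrophage sum 18.9 to 22.2 CPM in KO and 13.5 to 15.6 CPM in WT. The 6 pericyte and smooth muscle markers, of which 5 were tested, had 0 calls between the genotypes at 0 h. None of these endothelial, fibroblast or macrophage markers was at 0 in any library.

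The proteasome degrades proteins tagged with ubiquitin. Its 20S core is a barrel of stacked alpha and beta rings, with the proteolytic sites inside on the beta subunits of Psmb6 (caspase-like), Psmb7 (trypsin-like) and Psmb5 (chymotrypsin-like). The 19S particle caps the barrel: a base with a ring of ATPases (Psmc genes) unfolds substrates, ubiquitin receptors such as the product of Psmd4 bind them, and a lid that holds the deubiquitinase of Psmd14 removes ubiquitin. In many cells the subunit genes are transcribed together, under the factor Nfe2l1, and heart muscle depends on the proteasome for turnover of sarcomere proteins.

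Levels are CPM, counts relative to the library total after TMM scaling, and levels of different genes are compared per kilobase of the main annotated transcript. At 0 h Psmb7 had the highest level, 131 ± 5.59 CPM per kb in KO and 124 ± 16.9 CPM per kb in WT (mean ± SD, 3 libraries each). Psmb6 followed with 122 ± 10.8 CPM per kb in KO and 93.7 ± 6.84 CPM per kb in WT. Psmc3, an ATPase of the 19S base, had 116 ± 1.67 CPM per kb in KO and 89.2 ± 2.34 CPM per kb in WT. In KO neither Psmb7 and Psmb6 nor Psmb6 and Psmc3 were apart beyond their spread. By role the order was the same in both genotypes. The median beta gene stood at 98.1 CPM per kb in KO and 85.8 CPM per kb in WT, and the median alpha gene without Psma8 and the median ATPase gene were lower, at 63.5 and 46.7 CPM per kb in KO and 46.4 and 39.1 CPM per kb in WT. The median non-ATPase gene stood at 40.5 CPM per kb in KO and 33.9 CPM per kb in WT. The assembly chaperones lay below every subunit but Psma8, at 3.38 to 6.43 CPM per kb in KO and 3.58 to 6.12 CPM per kb in WT. Psma8, the alpha subunit of the testis, was at 0.332 ± 0.0622 CPM per kb in KO and 0.304 ± 0.158 CPM per kb in WT, with 6 to 17 counts per library.

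The 250 bases before the RefSeq start (RefSeq, GRCm38.p6) are shown for 4 subunit genes, chosen because these windows hold letters of known factor motifs. Whether such motifs have a part in the levels below was not tested. Capitals mark the core of the antioxidant response element, TGACNNNGC or TGAGNNNGC, to which Nfe2l1 and Nfe2l2 are known to bind, in Psmb6, Psmb5 and Psmd12, and the ETS-type motif CCGGAAG in Psmd6. Psmb6 lies on the forward strand at chr11:70525107-70525356, Psmb5 on the reverse strand at chr14:54617996-54618245, Psmd12 on the forward strand at chr11:107479278-107479527 and Psmd6 on the reverse strand at chr14:14120946-14121195.
Psmb6: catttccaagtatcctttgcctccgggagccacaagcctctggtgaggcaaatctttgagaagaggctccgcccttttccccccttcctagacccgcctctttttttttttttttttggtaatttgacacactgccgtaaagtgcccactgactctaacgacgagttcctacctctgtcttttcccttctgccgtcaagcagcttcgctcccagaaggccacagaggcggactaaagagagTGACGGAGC
Psmb5: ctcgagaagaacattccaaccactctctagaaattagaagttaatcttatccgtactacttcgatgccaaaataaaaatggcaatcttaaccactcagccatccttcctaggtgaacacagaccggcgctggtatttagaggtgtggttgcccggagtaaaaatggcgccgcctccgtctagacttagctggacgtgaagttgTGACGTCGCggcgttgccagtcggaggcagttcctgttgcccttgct
Psmd12: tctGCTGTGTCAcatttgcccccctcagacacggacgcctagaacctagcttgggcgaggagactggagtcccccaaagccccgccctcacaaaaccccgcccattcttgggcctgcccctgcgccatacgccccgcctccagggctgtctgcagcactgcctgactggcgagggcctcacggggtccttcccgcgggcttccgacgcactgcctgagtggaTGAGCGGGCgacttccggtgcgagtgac
Psmd6: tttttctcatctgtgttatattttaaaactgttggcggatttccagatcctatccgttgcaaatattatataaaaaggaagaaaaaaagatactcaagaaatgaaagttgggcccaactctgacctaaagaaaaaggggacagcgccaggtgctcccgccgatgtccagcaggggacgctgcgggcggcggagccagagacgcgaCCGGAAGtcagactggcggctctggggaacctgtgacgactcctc

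Windows were on file for 29 of the 36 tested genes, and motifs were searched on both strands. TGACNNNGC was in 5 of the 29 windows (17.2%: Psmb5, Psmb6, Psmc6, Psmd9 and Psmd12), against 10.6% of all 16521 windows and 12.0% of the 9495 windows of tested genes. TGAGNNNGC was in 8 windows (27.6%), against 14.8% of all windows and 16.2% of tested genes. CCGGAAG was in 9 windows (31.0%), against 9.53% of all windows and 14.2% of tested genes. Of the 9, 8 are 19S subunit genes, the other is Psmc3ip, and none is a 20S gene. Some 20S genes had no window on file, and whether the roles differ in this motif was not tested. GGGCGG, the Sp1-type GC box, was in 17 windows (58.6%), against 60.4% of tested genes, and CCAAT was in 12 (41.4%), against 36.4% of tested genes. The searched motifs can overlap each other in these windows, and a match is letters in a window, not a measured site.

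Before actinomycin D most proteasome genes were higher in KO with TMM scaling, and the direction depended on the scaling. With TMM scaling 23 of 36 were higher in KO and 0 lower at an adjusted p under 0.05 (edgeR quasi-likelihood test over all 13229 tested genes), while 18.8% of all tested genes were higher and 17.9% lower. With library size alone 7 were higher and 3 lower in KO, while 906 and 5563 of all tested genes were. With scaling by ribosomal protein counts 0 were higher and 12 lower, while 458 and 7669 of all tested genes were. The median log2 difference of the 36 genes was 0.22, against -0.02 over all tested genes. The other scalings moved both medians together, by 0.02 to -0.34, since a scaling shifts every gene alike. In bulk RNA, fewer cells of a type and less RNA per cell cannot be told apart, and the endothelial, fibroblast and macrophage markers given above were lower in KO in the same libraries (8 of 8, 7 of 8 and 7 of 8), while 6 of 10 cardiomyocyte markers were higher and 1 lower. The part of these cells in the result was not tested.

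In the 20S core, 12 of the 14 genes other than Psma8 were higher in KO at 0 h. Psma7, an alpha ring subunit, had 54.8, 56.4 and 62.9 CPM in KO, against 44.1, 44.1 and 38.9 CPM in WT. The groups did not overlap, and every KO library was above every WT library. The log2 fold change was 0.45 ± 0.06 (SE; adjusted p = 2.3e-08, edgeR), a 1.37-fold level, and was the largest among the genes called. Psmb6, the caspase-like subunit, had 92.9, 91.9 and 107 CPM in KO, against 81.1, 71.5 and 71.7 CPM in WT, again without overlap. Its log2 fold change was 0.38 ± 0.07 (adjusted p = 2.8e-04, edgeR). The chymotrypsin-like Psmb5 had 89.9, 86.8 and 88.0 CPM in KO, against 85.2, 76.5 and 79.6 CPM in WT, a difference of 0.13 ± 0.05 on the log2 scale (adjusted p = 0.0255, edgeR). It was called with TMM scaling, and its sign turned with library size alone. The trypsin-like Psmb7 had 145, 151 and 158 CPM in KO, against 136, 129 and 166 CPM in WT, and did not pass the test (0.08 ± 0.06, adjusted p = 0.34): 1 WT library stood above all 3 KO libraries.

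In the 19S particle, 11 of 17 subunit genes were higher in KO at 0 h: 5 of the 6 ATPase genes and 6 of the 11 non-ATPase genes. Psmd8, a lid subunit, had 74.3, 75.6 and 74.5 CPM in KO, against 60.8, 56.5 and 52.4 CPM in WT. Its log2 fold change was 0.40 ± 0.05 (adjusted p = 4.0e-09, edgeR), a 1.32-fold level. Psmc3 had 187, 189 and 193 CPM in KO, against 150, 145 and 143 CPM in WT, and its groups lay far apart (log2 fold change 0.38 ± 0.04). Psmd14, the lid deubiquitinase, averaged 38.5 ± 0.844 CPM in KO and 31.2 ± 1.42 CPM in WT (mean ± SD of 3 libraries each). Psmd4, the ubiquitin receptor, averaged 73.1 ± 4.22 CPM in KO and 66.5 ± 2.05 CPM in WT, and both Psmd14 and Psmd4 passed the test. The lid gene Psmd11 did not, with 57.2 ± 0.654 CPM in KO and 54.5 ± 1.15 CPM in WT.

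The genes at the low end were the 2 large scaffold subunits of the base and a chaperone. Psmd2 had 245, 228 and 232 CPM in KO, against 230, 251 and 247 CPM in WT, with a log2 fold change of -0.04 ± 0.04 (adjusted p = 0.45, edgeR). Psmd1 stood at 0.04 ± 0.04 (adjusted p = 0.57), and the chaperone Psmd5 at -0.08 ± 0.09 (adjusted p = 0.47). The groups overlapped for Psmd2, Psmd1 and Psmd5. None of the 3 chaperone genes was called with TMM scaling, although their levels of 8.37 to 15.5 CPM in KO and 7.68 to 16.4 CPM in WT rest on fewer counts than the subunits. Psmc3ip had the highest fitted value of all (0.61 ± 0.30) without passing the test (adjusted p = 0.10), from 8 to 28 counts per library. It overlaps Mlx on the opposite strand, which had 3884 counts to the 330 of Psmc3ip; whether strand was used in counting is not given in the sources used here. Over all 36 genes, every KO library was above every WT library for 28 genes and below for 0, against 22.5% and 23.3% of all tested genes.

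**Figure D1:**
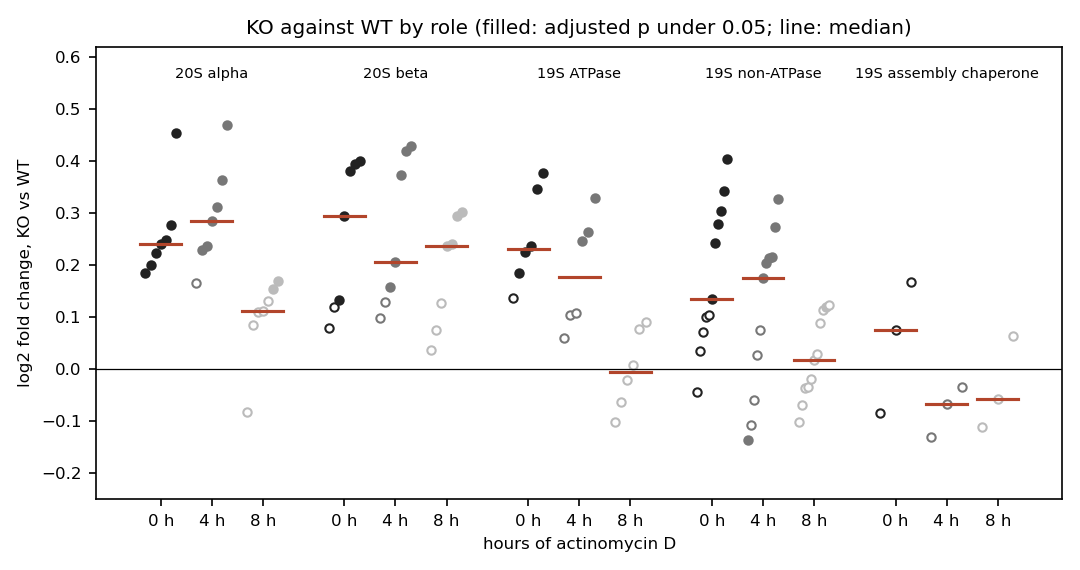
Log2 fold change of KO against WT with TMM scaling (vertical axis) for each proteasome gene at 0, 4 and 8 h of actinomycin D (horizontal axis), by role, without Psma8 and Psmc3ip. Filled points passed at an adjusted p under 0.05 and red lines are medians: the beta genes kept a median of 0.24 at 8 h, where the ATPase median was -0.01; with ribosomal protein scaling all called genes at 0 h lay below 0.

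At 4 h most of the family was again higher in KO with TMM scaling. With TMM scaling 20 of the 36 genes were higher in KO and 1 lower, against 14.6% and 17.4% of all tested genes, and the median log2 difference was 0.20, against -0.04 over all genes; with scaling by ribosomal protein counts 0 were higher and 17 lower, while 316 and 7664 of the 13229 tested genes were. Psma7 had 63.5, 66.8 and 69.5 CPM in KO, against 45.8 and 50.4 CPM in WT, and Psmb6 106, 111 and 113 CPM in KO, against 79.5 and 83.8 CPM in WT. Both stood clear of the WT libraries. Psmd2 was the single gene called lower, with 264, 254 and 248 CPM in KO, against 272 and 290 CPM in WT (log2 fold change -0.14 ± 0.05, adjusted p = 0.0228, edgeR). No gene was called lower with RLE size factors, DESeq2, no filter or the compared groups only, nor without KO replicate 2 or 3 or either WT replicate at 4 h, so the call rests on single libraries and on the setting. The genes higher at both 0 and 4 h with TMM scaling numbered 18, and the share of all tested genes that were was not counted.

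At 8 h fewer genes were called, and the number called higher was near the share over all tested genes. Of the 7 called, 6 belong to the 20S core, and whether the roles differed was not tested. With TMM scaling 7 of 36 genes were higher in KO and 0 lower, against 13.9% and 13.7% of all tested genes, with a median of 0.07, against -0.02 over all genes; with library size alone 2 were higher and 5 lower, while 948 and 3042 of the 13229 tested genes were, and without mitochondrial genes in the library size 3 were higher and 9 lower, while 996 and 3437 of all tested genes were. The 7 were the alpha genes Psma3 and Psma5, the beta genes Psmb2, Psmb3, Psmb4 and Psmb6, and Psmd2. All but Psmd2 had been higher at 0 and 4 h as well. Of the genes higher at 0 h, 17 were no longer called at 8 h, and the share of all tested genes was not counted. A lost call is not a test of a change, and the test of the difference by 8 h, given below, called 10 genes. Psmb6 had 116, 135 and 140 CPM in KO, against 116, 103 and 98.6 CPM in WT, with the lowest KO library level with the highest WT library. Its log2 fold change was 0.30 ± 0.07 (adjusted p = 0.0032, edgeR). Psmb2, a non-catalytic beta ring subunit, had 86.7, 99.1 and 96.5 CPM in KO, against 74.8, 77.9 and 77.3 CPM in WT, and its difference was 0.30 ± 0.06 (adjusted p = 3.0e-05). Psmd2 had 296, 297 and 282 CPM in KO, against 258, 274 and 273 CPM in WT (0.12 ± 0.04, adjusted p = 0.0302).

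**Figure D2:**
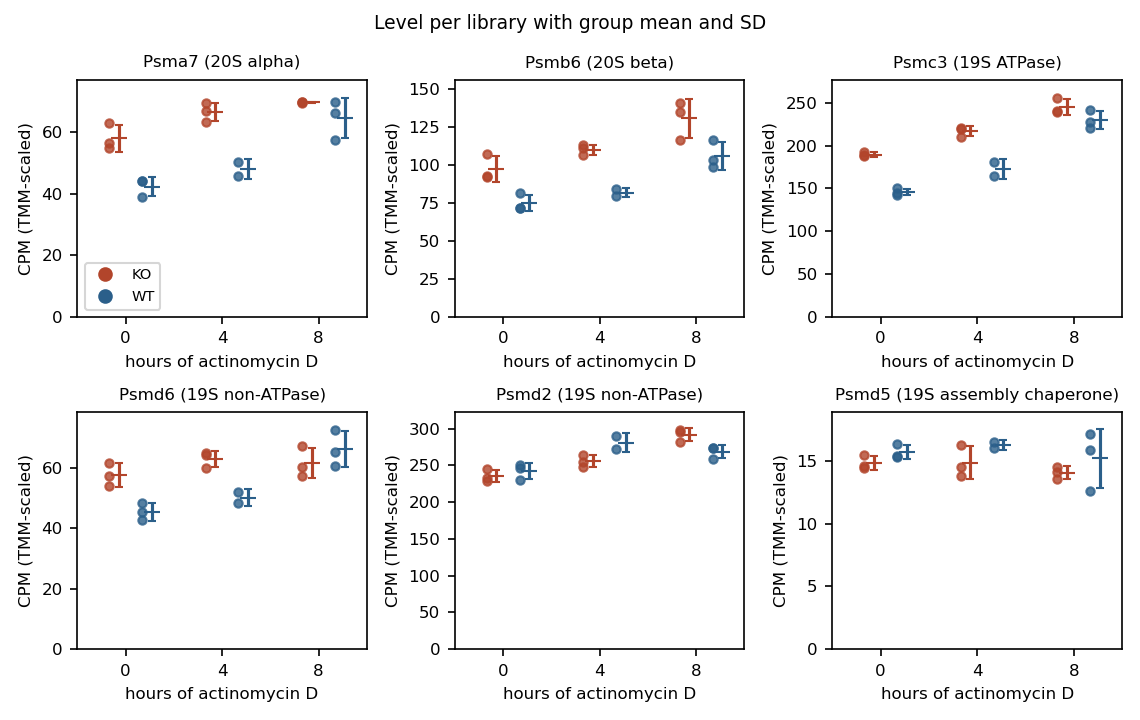
CPM with TMM scaling (vertical axis, from 0) of 6 proteasome genes in every library at 0, 4 and 8 h of actinomycin D (horizontal axis), KO left of WT, with the group mean and SD beside the points. Psma7, Psmc3 and Psmd6 were higher in KO at 0 and 4 h and not called at 8 h, Psmb6 was also higher in KO at 8 h, Psmd2 was called lower in KO at 4 h, a call lost with DESeq2, and higher at 8 h, and Psmd5 was not called with TMM scaling.

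In WT cells under actinomycin D most proteasome genes rose by 8 h relative to the other genes with TMM scaling. Levels are relative within a library, so after transcription was blocked a higher TMM level is one relative to the bulk of the other genes, not more RNA. By 8 h 30 of 36 genes had risen and 0 had fallen with TMM scaling, against 25% and 26.8% of all tested genes (51.8% called either way), and the median log2 change was 0.41, against -0.03 over all genes. As a share of the library (library size alone) 18 rose and 1 fell, while 1274 and 5898 of the 13229 tested genes did. With scaling by ribosomal protein counts 0 rose and 27 fell, while 49 and 11293 of all tested genes did; the ribosomal protein genes, which that scaling sets at no change, took 1.03 to 1.13% of counts in WT at 8 h, against 0.744 to 0.834% in WT at 0 h. All 14 core genes other than Psma8 rose, as did 16 of 17 subunit genes of the 19S particle, and none of the 3 chaperones did. Every WT library at 8 h was above every WT library at 0 h for 32 genes and below for 0, against 26.7% and 29.6% of all tested genes. The endothelial, fibroblast and macrophage markers fell in the same comparison (8 of 8 in each list), and 8 of 10 cardiomyocyte markers rose; their part in the result was not tested.

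Psmc3 rose most among the genes called, with 242, 221 and 227 CPM in WT at 8 h, against 150, 145 and 143 CPM in WT at 0 h. That is a 1.58-fold level, with a log2 fold change of 0.66 ± 0.04 (adjusted p = 3.9e-20, edgeR). Psmc3 overlaps Slc39a13 on the opposite strand, which had 4650 counts to its 59557. Psma8 (0.71 ± 0.36, adjusted p = 0.09) and Psmc3ip (0.61 ± 0.30, adjusted p = 0.08) had values of the same size on few counts and did not pass. At the low end, Psmd3, a lid subunit, had 62.4, 61.2 and 60.2 CPM in WT at 8 h, against 56.9, 52.3 and 58.8 CPM in WT at 0 h (0.13 ± 0.06, adjusted p = 0.05), just short of the threshold. Psmd2 rose by a log2 fold change of 0.15 ± 0.04 (adjusted p = 0.0033), and Psmd5 stood at -0.05 ± 0.09 (adjusted p = 0.65). Psmd2 and Psmd3 turned negative with library size alone.

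The catalytic genes rose by 8 h in WT: Psmb6 averaged 106 ± 9.06 CPM at 8 h and 74.8 ± 5.46 CPM at 0 h, Psmb5 99.8 ± 2.90 CPM and 80.4 ± 4.39 CPM, and Psmb7 179 ± 9.91 CPM and 143 ± 19.6 CPM (± SD, 3 libraries each). So did the followed 19S genes: Psmd4 averaged 91.0 ± 5.98 CPM at 8 h and 66.5 ± 2.05 CPM at 0 h, Psmd14 43.2 ± 1.79 CPM and 31.2 ± 1.42 CPM, and Psmd11 62.3 ± 0.866 CPM and 54.5 ± 1.15 CPM. At 4 h 20 genes had risen in WT with TMM scaling, against 15.9% of all tested genes, and 0 had fallen, against 12.6%; with library size alone 0 rose and 1 fell, while 118 and 3186 of the 13229 tested genes did, and with ribosomal protein scaling again 0 and 1. The family's summed counts relative to library size alone were 2715 ± 92.6 CPM at 4 h and 2711 ± 125 CPM at 0 h. That count rested on the 2 libraries at 4 h: it was 3 without replicate 2 at 4 h, and 13 without replicate 2 at 0 h. With TMM scaling group means followed the order of the times, lowest at 0 h and highest at 8 h, in 29 of 36 genes in WT and 31 in KO. This order was not counted over all tested genes or with another scaling.

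In KO cells most of the family also rose. By 8 h 28 of 36 genes had risen with TMM scaling and 0 had fallen, against 21.4% and 23.2% of all tested genes (44.6% called either way), and the median was 0.19, against -0.02 over all genes; with ribosomal protein scaling 0 rose and 17 fell, while 28 and 8113 of the 13229 tested genes did. In the same comparison 8 of 8 endothelial, 8 of 8 fibroblast and 5 of 8 macrophage markers fell and 9 of 10 cardiomyocyte markers rose; their part in the result was not tested. The genes that rose in both genotypes with TMM scaling numbered 27, and the share of all tested genes that did so was not counted. Psmc6, Psmd6 and Psmd11 were called in WT and not in KO, and Psmd3 in KO and not in WT; of these 4, the difference in change passed its own test for Psmc6 and Psmd6. Psmb6 rose most in KO, with 116, 135 and 140 CPM at 8 h, against 92.9, 91.9 and 107 CPM at 0 h (0.42 ± 0.07, adjusted p = 5.7e-05, edgeR). Every library at 8 h was above every library at 0 h. Psmd13, a lid subunit, followed with 62.7, 58.9 and 66.9 CPM at 8 h, against 48.7, 45.9 and 48.9 CPM at 0 h (0.39 ± 0.06, adjusted p = 2.5e-08). It overlaps Sirt3 on the opposite strand, which had 12911 counts to its 15466, so reads of the pair may be split between them. Psmc3 rose by 0.37 ± 0.04 (adjusted p = 1.5e-10). Psmd5 (-0.08 ± 0.09), Psmd9 (-0.06 ± 0.10) and Psmc3ip (-0.17 ± 0.29) did not pass. At 4 h every KO library was above every KO library at 0 h for 16 genes and below for 0, against 18.6% and 19.9% of all tested genes. By the test 16 genes had risen in KO at 4 h, against 11.4% of all tested genes, and 0 had fallen, against 13.5%; the count was 7 without replicate 2 at 0 h and 8 without replicate 3 at 4 h, and with ribosomal protein scaling 0 rose and 2 fell, while 18 and 4611 of the 13229 tested genes did.

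Of the followed genes in KO, Psmb5 averaged 88.2 ± 1.55, 100 ± 2.86 and 105 ± 3.57 CPM at 0, 4 and 8 h (± SD, 3 libraries each), and Psmb7 152 ± 6.48, 179 ± 2.95 and 195 ± 4.24 CPM. Both rose at 4 and at 8 h. Psmd4 averaged 73.1 ± 4.22, 78.8 ± 4.22 and 88.9 ± 3.32 CPM, and Psmd14 38.5 ± 0.844, 43.1 ± 1.64 and 43.7 ± 0.850 CPM. Psmd11 averaged 57.2 ± 0.654, 61.2 ± 0.772 and 61.6 ± 2.32 CPM and passed at neither time.

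The change from 0 to 8 h differed between genotypes for 10 of 36 genes, each with the smaller increase in KO, by the test of the difference itself. Over all tested genes 3.33% were called in that direction and 1.87% in the other (5.2% in all), in which no proteasome gene was called. The KO value and the WT value of a gene share no libraries, but each of these 10 genes was also higher in KO at 0 h, and that comparison shares its 0 h libraries with this one. Psmd6, a lid subunit, stood lowest among the genes called. In KO it had 57.3, 60.3 and 67.1 CPM at 8 h, against 57.4, 53.8 and 61.7 CPM at 0 h, and the groups overlapped. In WT it had 72.4, 65.3 and 60.5 CPM at 8 h, against 48.5, 45.3 and 42.6 CPM at 0 h, with every library at 8 h above every library at 0 h. The log2 change was 0.10 ± 0.06 in KO and 0.54 ± 0.06 in WT, and their difference -0.45 ± 0.09 (adjusted p = 9.2e-04, edgeR).

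By role the 10 were 8 of the 17 subunit genes of the 19S particle (the ATPases Psmc1, Psmc3, Psmc5 and Psmc6, and Psmd6, Psmd8, Psmd12 and Psmd14) and 2 of 14 core genes (Psma2 and Psma7); no beta gene was among them. Whether the roles differed from each other was not tested. The median difference over the 36 genes was -0.16, against -0.02 over all genes, and the value was larger in WT for 32 genes. At the other end were Psmd2 (0.16 ± 0.06, adjusted p = 0.11), Psmb7 (0.05 ± 0.09, adjusted p = 0.84) and Psmd3 (0.01 ± 0.08, adjusted p = 0.97), and Psmc3ip (-0.78 ± 0.42) and Psma8 (-0.55 ± 0.53) had low fitted values on few counts, none of which passed. The count was 5 without KO replicate 3 at 0 h and 6 without WT replicate 3 at 8 h, and Psmc3, Psmc6, Psmd6 and Psmd8 were called whichever single library was left out. It depended on scaling as well: with library size alone 1 gene was called lower and 1 higher, while 132 and 564 of the 13229 tested genes were, and with ribosomal protein scaling 5 were called higher and 0 lower, while 3076 and 44 of all tested genes were. Macrophage markers moved the other way between the genotypes, with 6 of 8 called in the direction of a larger fall in WT, and 3 of 10 cardiomyocyte markers were called with the smaller rise in KO; their part in the result was not tested. From 0 to 4 h no proteasome gene differed in its change at an adjusted p under 0.05 by edgeR or DESeq2. At that adjusted threshold 0.242% and 0.106% of all tested genes were called higher and lower by edgeR (0.348% in all). An unadjusted p under 0.05 by edgeR was met by 3 proteasome genes (1 higher and 2 lower). The share of all tested genes at the unadjusted threshold was not counted.

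**Figure D3:**
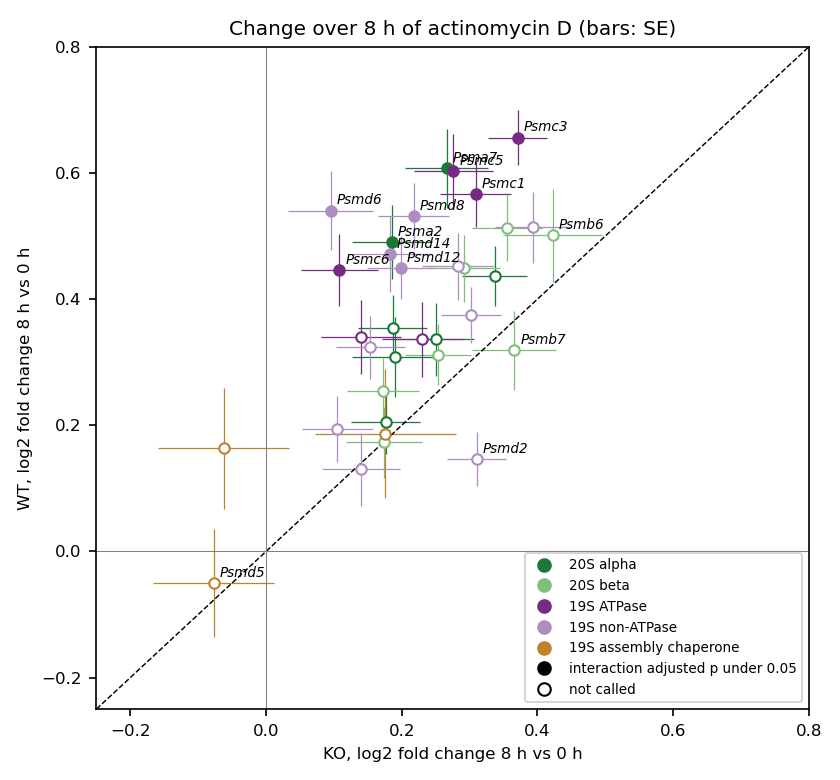
Log2 fold change from 0 to 8 h of actinomycin D in KO (horizontal axis) and WT (vertical axis) with TMM scaling for 34 proteasome genes, without Psma8 and Psmc3ip; bars are SE, and the dashed line marks equal change. Filled points are the 10 genes whose change differed between genotypes, all above the line with a larger rise in WT; with ribosomal protein scaling the fitted difference turned positive for Psmc1 and Psmd12.

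Balance within the family was read without any library scaling. The summed counts of the 14 core genes were 0.824 to 0.872 times those of the 17 subunit genes of the 19S particle in the 9 KO libraries, against 0.759 to 0.816 times in the 8 WT libraries. The ranges did not overlap, at any time or over all times. Group means were 0.837 ± 0.0139 in KO and 0.802 ± 0.0219 in WT at 0 h, 0.857 ± 0.0130 in KO and 0.768 ± 0.00543 in WT at 4 h, and 0.847 ± 0.0208 in KO and 0.780 ± 0.0253 in WT at 8 h (SD, n = 3, but n = 2 for WT at 4 h). These ratios are a description with no test. Psmd2 alone took 8.57 ± 0.370% of the family's counts in KO and 10.2 ± 0.598% in WT at 0 h, and 8.90 ± 0.421% in KO and 8.66 ± 0.550% in WT at 8 h.

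Libraries were also scaled by the summed counts of the family, so that only differences within it remained. This sets the family's sum at no change by construction, so shares of all tested genes on that scale say nothing of the family's level. At 0 h 7 genes were higher and 3 lower in KO, against 7.07% and 42.4% of all tested genes on that scale. Psma7, Psmb3, Psmb4, Psmb6, Psmc3, Psmc6 and Psmd8 were higher and Psmd1, Psmd2 and Psmd5 lower. At 8 h the higher genes were the beta genes Psmb2, Psmb3, Psmb4 and Psmb6 and the lower ones Psma2, Psmc5, Psmd6 and Psmd7, against 8.13% higher and 20.4% lower over all tested genes. Psmb6 took 3.54 ± 0.212% of the family's counts in KO and 3.14 ± 0.203% in WT at 0 h, and 3.97 ± 0.305% in KO and 3.41 ± 0.205% in WT at 8 h. At 4 h 6 genes were higher and 4 lower on this scale, against 6.19% and 35.3% of all tested genes, and by 8 h in WT 7 rose and 8 fell relative to the family, against 3.63% and 63.4%. The difference in change over 8 h remained called on this scale for Psmd6 (-0.32 ± 0.09, adjusted p = 0.0205, edgeR) and was called the other way for Psmd2 (0.29 ± 0.07, adjusted p = 0.0076). These were the 1 gene called lower and the 1 called higher, against 0.922% and 6.05% of all tested genes.

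**Figure D4:**
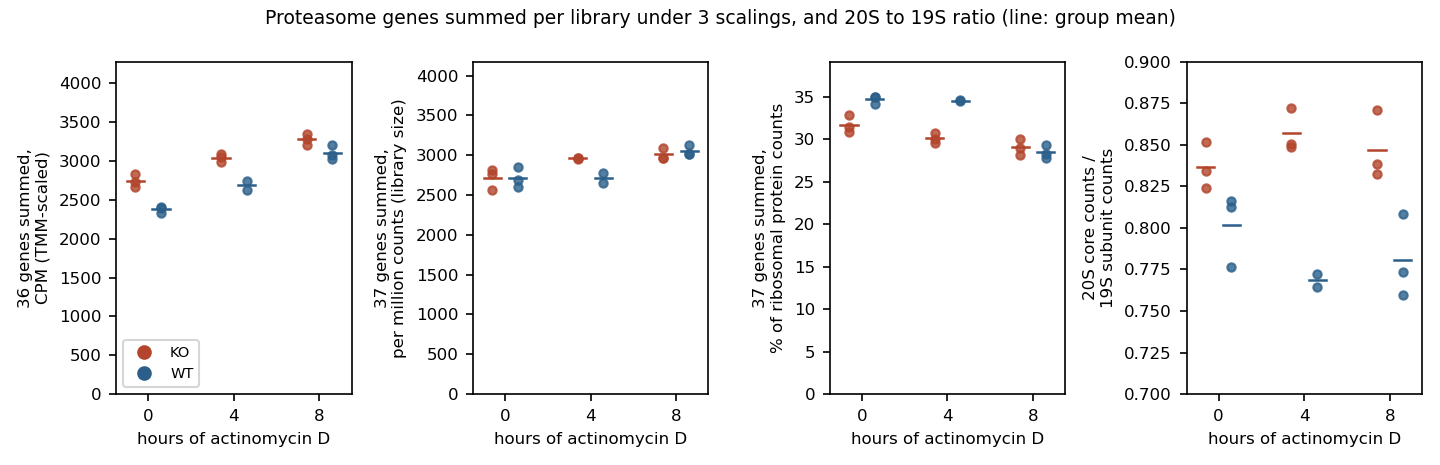
Summed counts of the proteasome genes per library at 0, 4 and 8 h of actinomycin D, KO left of WT, as TMM-scaled CPM, relative to library size alone, and as a percentage of ribosomal protein counts, and the ratio of 20S core to 19S subunit counts (axis from 0.70); points are libraries and lines group means. At 0 h the sum was higher in KO with TMM scaling, alike by library size (2714 ± 137 in KO and 2711 ± 125 in WT) and lower in KO relative to ribosomal protein counts (31.7 ± 1.02% in KO and 34.7 ± 0.469% in WT), while the ratio was above WT in every KO library.

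Features of the transcripts that the symbol rule did not use were set beside these values. The 3' UTRs of the 36 tested genes were short, with a median of 267.5 bases, against 1075 bases over 11848 tested protein-coding genes (GENCODE M21, GRCm38). ATTTA, the core of AU-rich elements of unstable transcripts, was in 14 of 36 (38.9%), against 68.4% of all, with no correction for length. The motif YGCY that MBNL proteins bind (TGCT, and likewise TGCC, and likewise CGCT, and likewise CGCC) occurred 1.07 times per 100 bases in the median gene, against 1.26 over all, counted on the transcribed strand and with overlaps. Windows of 30 bases of 3 of these UTRs are shown because each holds 2 or 3 such matches, in capitals. Psmc1 (forward strand, chr12:100123297-100123326) was among the genes whose change differed, and Psmd4 (reverse strand, chr3:95032734-95032763) and Psmd1 (forward strand, chr1:86139080-86139109) were not.
Psmc1: atctgttgttggtcattgTGCCgTGCTGCT
Psmd4: tggatagaggcttagatgTGCTcTGCTGCC
Psmd1: gatccCGCCTGCCcagctgaagaagactgt

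The 10 genes whose change differed had a median of 0.92 matches per 100 bases and the other 26 tested genes 1.14. Across the 34 genes without Psma8 and Psmc3ip, the density of matches and the difference in change had a Spearman rho of -0.10 and a Pearson r of -0.00; this is a description across genes of the same libraries. UTR length and the difference in change had a rho of 0.06 and an r of 0.05. The rise over 8 h itself was smaller in genes with longer UTRs, with a rho of -0.57 (r = -0.67) in KO and -0.42 (r = -0.51) in WT. In KO it also went with the mean level (rho = 0.56, r = 0.65), which was less so in WT (rho = 0.15, r = 0.38). The low-level chaperone genes are among those with long UTRs, so length and level share these points.

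Psma2, Psma7, Psmb1, Psmc2, Psmc5 and Psmd10 start within 32 to 179 bases of a gene on the other strand (Mrpl32, Ss18l1, Tbp, Dnajc2, Ftsj3 and Atg4a). Psma2 also overlaps AW209491 on the same strand, which had 2818 counts to its 19414.

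Other genes of the pathway were set beside the subunits by lists with TMM scaling. Over all tested genes 18.8% were higher and 17.9% lower in KO at 0 h, and 25% rose and 26.8% fell by 8 h in WT. The lists are short, and whether a list departs from these shares was not tested. Of the 3 immunoproteasome genes, at 0 h Psmb10 was higher in KO (0.34 ± 0.07, adjusted p = 5.3e-05, edgeR) and Psmb9 was not called (-0.41 ± 0.28), and by 8 h in WT Psmb8 (-1.29 ± 0.33) and Psmb9 (-1.64 ± 0.33) fell and Psmb10 rose (0.24 ± 0.07). Psmb8 and Psmb9 rest on few counts, at 1.54 and 1.37 CPM in KO and 1.48 and 1.81 CPM in WT at 0 h. Of the 5 activators and inhibitors, 2 were higher and 1 lower in KO at 0 h: Psme1, of the PA28 cap, stood at 0.70 ± 0.05 (adjusted p = 8.5e-19), and Psme4, of the PA200 cap, at -0.23 ± 0.04 (adjusted p = 4.7e-06). By 8 h in WT 4 of the 5 had risen, from Psme1 at 0.55 ± 0.05 down to the uncalled inhibitor Psmf1 at 0.12 ± 0.08. Of the 5 core assembly factors, 2 were higher in KO at 0 h, with Psmg2 at 0.34 ± 0.07 and the uncalled Psmg4 at -0.23 ± 0.19 as extremes. By 8 h in WT 2 rose and 1 fell, with Pomp at 0.32 ± 0.06 and Psmg3 at -0.66 ± 0.23.

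Of the 9 associated genes, 5 were higher and 1 lower in KO at 0 h, from Sem1, the smallest 19S subunit, at 0.94 ± 0.12 to Fbxo7 at -0.29 ± 0.10; by 8 h in WT the same 2 genes were the extremes, at 0.91 ± 0.12 and -0.50 ± 0.10. Of the 4 ubiquitin genes, 1 was higher in KO at 0 h, and Ubb was lowest at -0.11 ± 0.15 without a call. By 8 h in WT 3 of the 4 rose, and Rps27a had the lowest value of the list at 0.32 ± 0.08. Neither of the 2 E1 enzyme genes was called in either comparison: Uba1 stood at -0.10 ± 0.05 and Uba6 at -0.25 ± 0.11 at 0 h, and at 0.01 ± 0.05 and -0.17 ± 0.11 by 8 h in WT. Of the 11 shuttle and Vcp genes, 4 were higher and 1 lower in KO at 0 h (Rad23b at 0.27 ± 0.05 and Ubqln4 at -0.25 ± 0.05), and 7 rose and 1 fell by 8 h in WT (Faf2, at -0.41 ± 0.12). Of the 32 highest and lowest values of the lists in these comparisons, 12 changed sign with ribosomal protein scaling and 3 with library size alone.

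Among the 8 genes of transcriptional control, 1 was lower in KO at 0 h and none higher, with Mafg at -0.18 ± 0.07 and the uncalled Maff at 0.18 ± 0.12. By 8 h in WT 3 rose and 3 fell, with Maff at 0.32 ± 0.11 and Nfe2l2, the antioxidant response factor, at -0.65 ± 0.06 (adjusted p = 1.6e-13). Nfe2l1, chosen here after its values were seen, stood at -0.05 in KO against WT at 0 h (adjusted p = 0.37, edgeR), and rose by 0.24 in WT and 0.19 in KO by 8 h. Its part in the levels of the subunit genes was not tested.

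**Figure D5:**
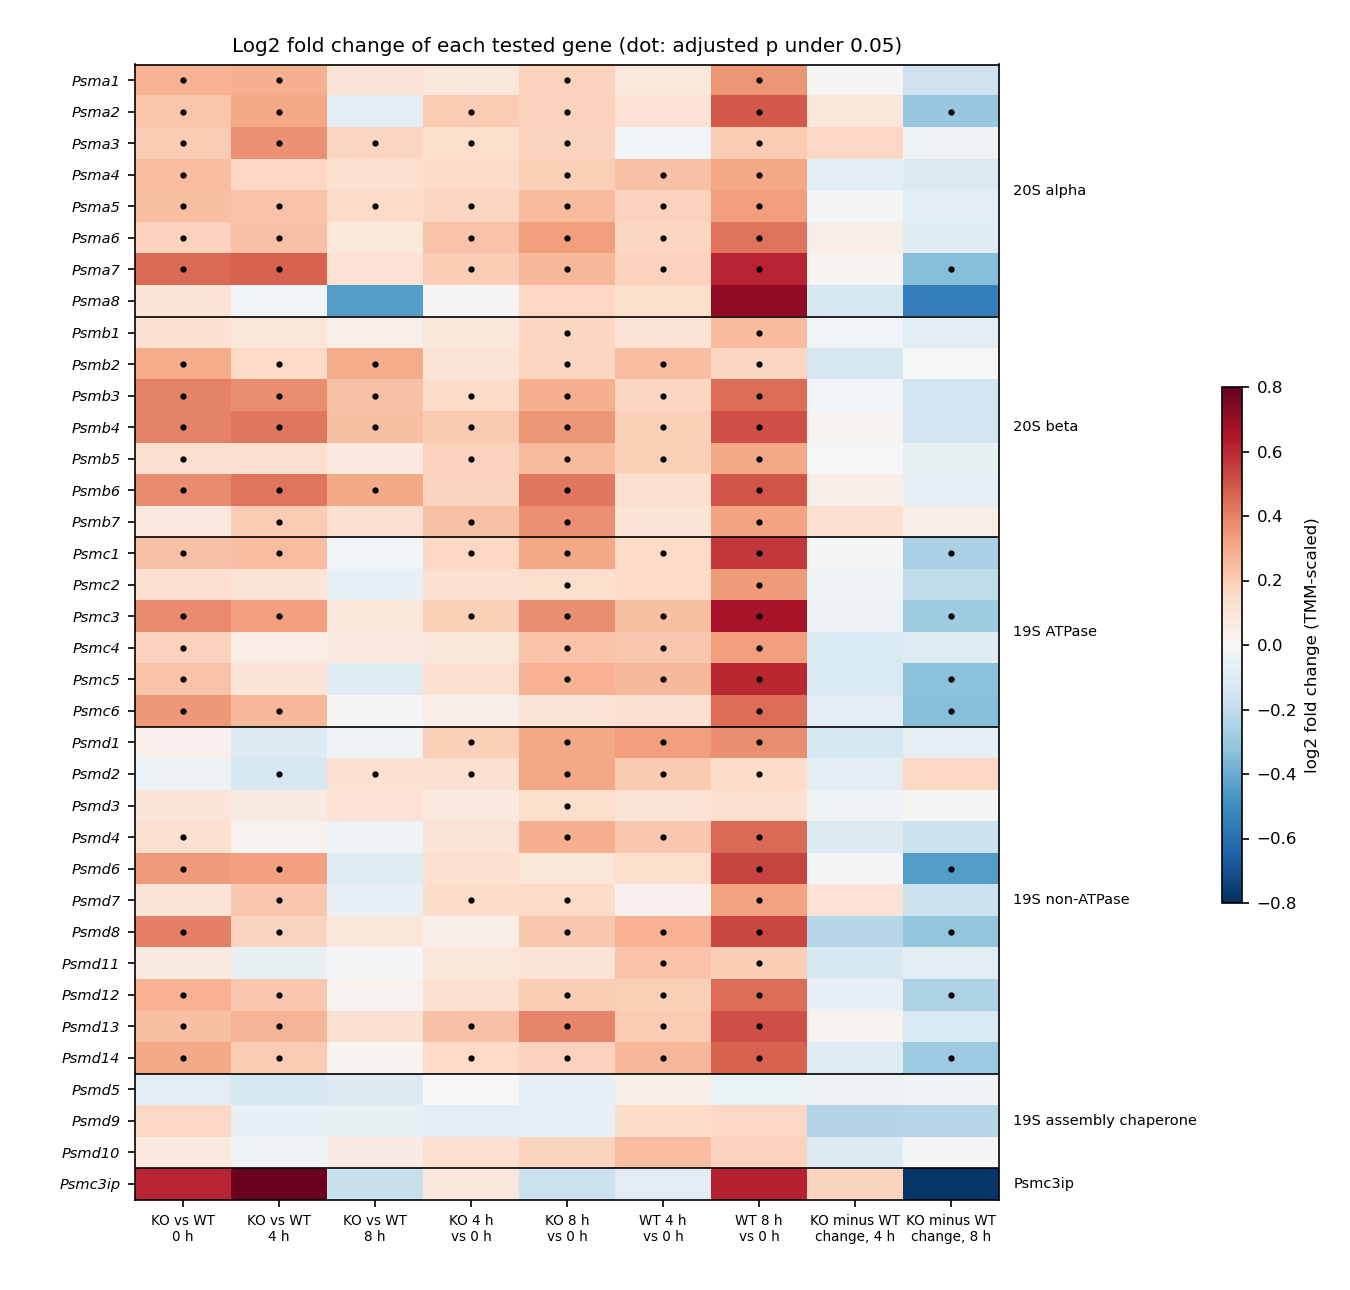
Log2 fold change with TMM scaling of the 36 tested genes (rows, by role) in 9 comparisons (columns), with colours cut at -0.8 and 0.8 and a dot where the adjusted p was under 0.05. The KO against WT columns at 0 and 4 h and both 8 h columns are largely red with TMM scaling while with ribosomal protein scaling 0 genes were called higher in them, and the last column shows the 10 genes with a smaller rise in KO; Psma8, Psmc3ip and the 3 chaperones have no dot in any column.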

How the data were processed

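RNA was measured in 17 libraries, 9 KO and 8 WT. Per the submitters' processing notes STAR, featureCounts, DESeq2 and limma were used with GRCm38 (mm10); no version or strand setting is given there. The authors deposited raw counts per gene and a table of corrected ratios, in which each gene's 0 h libraries of a genotype average 1; no source used here describes the correction, so the deposited ratios served as an alternative only. A row that names no gene (0.00735 to 0.0155% of counts) was left out. Of 55486 gene IDs, 99.4% matched GENCODE M21.

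Counts were fitted with edgeR 4.0.16 in R 4.3.3 in 1 model of 6 groups (TMM scaling, filterByExpr, robust quasi-likelihood), with Benjamini-Hochberg adjustment across the 13229 tested genes and calls under 0.05. Log2 fold changes were computed from the deposited counts and carry SE from the fit. The fit was tested on simulated data with known changes. The median squared difference between libraries of a group was 1.26 to 1.89 times that of counting noise. The labels do not say whether replicate numbers pair libraries, and the main fit used no pairing. Same-numbered libraries did not deviate together (residual correlations -0.05 to 0.04 over 40 pairs). With deviations this close to counting noise, that check could miss a pairing. Alternatives were other scalings, filters, DESeq2 1.42.0, limma 3.58.1 on log2 of the deposited ratios, the compared groups only, a replicate block and leaving out each library; scaling by the family's own counts was added after seeing the data.

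The genes and lists were chosen with earlier results of these data known. Full statistics are printed for the 3 highest and 3 lowest genes in KO against WT at 0 h, both 8 h changes and their difference, and levels for Psmb5, Psmb6, Psmb7, Psmd4, Psmd11 and Psmd14 whatever their values; of each related list the highest and lowest gene is named, except where a gene is not reported here. Other genes were named for a call or a pattern, after their values were seen.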

Additional observations from a re-analysis of the deposited data

Results flagged for a closer look

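The change from 0 to 8 h of actinomycin D differed between KO and WT for 10 proteasome genes, by edgeR's test of the difference with adjusted p-values under 0.05, as KO change minus WT change on the log2 scale. In the 19S particle the difference was -0.45 for Psmd6, -0.34 for Psmc6, -0.33 for Psmc5, -0.31 for Psmd8, -0.29 for Psmd14, -0.29 for Psmc3, -0.26 for Psmc1 and -0.25 for Psmd12. In the 20S core it was -0.34 for Psma7 and -0.30 for Psma2. Psmd6 was called lower in 10 of 11 other settings and the rest in 4 to 7 of 11.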

How the results depend on the processing

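Counts of called proteasome genes are given in the order KO against WT at 0, 4 and 8 h, WT at 4 and 8 h, KO at 4 and 8 h, and the difference in change by 4 and 8 h. Each count adds the genes called higher and lower. DESeq2 gave 23, 21, 7, 17, 31, 18, 28, 0 and 9. The replicate block gave 23, 21, 7, 20, 31, 17, 27, 0 and 10, although the labels do not say that the numbers pair libraries. Leaving out 1 library each gave 21 to 26, 16 to 24, 5 to 8, 3 to 19, 29 to 32, 7 to 18, 25 to 28, 0 to 0 and 5 to 11. Library size alone gave 10, 15, 7, 1, 19, 9, 14, 0 and 2, with the direction turned at 8 h in KO against WT and at 4 h in WT. At 4 h in KO against WT 13 were higher and 2 lower, while 1432 and 2694 of the 13229 tested genes were. By 4 h in KO 9 rose and 0 fell, while 869 and 1814 of all tested genes did. By 8 h in KO 14 rose and 0 fell, while 1495 and 3988 did. Ribosomal protein scaling gave 12, 17, 4, 1, 27, 2, 17, 0 and 5, with the direction turned in all but the third and the eighth. At 8 h in KO against WT 4 were higher and 0 lower, while 1037 and 1941 of all tested genes were. By 4 h in WT 0 rose and 1 fell, while 47 and 2906 of all tested genes did. Library size without mitochondrial genes gave 15 at 0 h and 12 (turned) at 8 h in KO against WT, 2 by 4 h in WT, and 0 and 7 by 4 and 8 h in KO. At 0 h 12 were higher and 3 lower, while 1268 and 4641 of all tested genes were. By 4 h in WT 1 rose and 1 fell, while 219 and 3276 of all tested genes did. By 4 h in KO 223 and 3102 of all tested genes did. By 8 h in KO 5 rose and 2 fell, while 615 and 5826 of all tested genes did. Scaling by the family gave 10 at 0 h and 10 at 4 h in KO against WT, 2 and 15 (turned) in WT, 0 and 6 (turned) in KO, and 2 for the difference by 8 h. That scaling sets the family's sum at no change by construction. By 4 h in WT 1 rose and 1 fell, against 0.945% and 24.6% of all tested genes. By 8 h in KO 1 rose and 5 fell, against 2.83% and 46.4%. By 4 h in WT, 10 rose and 0 fell with no filter, while 1282 and 1672 of the genes in that fit did. In a fit of the compared groups 10 rose and 0 fell, while 1262 and 1672 of its genes did. The deposited ratios gave 0 and 18 in WT, 0 and 5 in KO, and 2 for the difference by 8 h. Counts for DESeq2, the replicate block, left-out libraries and the deposited ratios stand here without the share of all tested genes. They show only how the number of calls varied.

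Signs of single log2 values turned as follows. At 0 h in KO against WT, with library size alone, ribosomal protein scaling, no mitochondrial genes and family scaling, Psmd1 stood at -0.17, -0.30, -0.11 and -0.17, Psmb5 at -0.071, -0.20, -0.013 and -0.072, and Psmb7 at -0.13, -0.25, -0.067 and -0.13. By 8 h in WT, with the same settings and the deposited ratios, Psmd3 stood at -0.083, -0.54, -0.13, -0.25 and -0.082 and Psmd2 at -0.068, -0.52, -0.12, -0.24 and -0.067. With ribosomal protein scaling Psmc3ip stood at -0.049, Psmc3 at -0.015, Psmb5 at -0.36, Psmb6 at -0.17 and Psmb7 at -0.35 by 8 h in WT, Psmc3 at -0.015 in KO, and the differences of Psmc1 and Psmd12 at 0.030 and 0.032. With family scaling Psmb5 and Psmb7 stood at -0.071 and -0.065 by 8 h in WT. The deposited ratios put the difference of Psmb7 at -0.063. Leaving out 1 library turned uncalled values only, which ranged over -0.073 to 0.0079 for Psmd2 at 0 h in KO against WT, -0.15 to 0.071 for Psmd5 by 8 h in WT, -0.38 to 0.082 for Psmc3ip and -0.17 to 0.031 for Psmd9 by 8 h in KO, and -0.070 to 0.078 for Psmd3 and -0.096 to 0.093 for Psmb7 in the difference. Apart from what a scaling does by its construction, the cause was not tested. Depth limits Psma8 and Psmc3ip most, with 6 to 28 counts per library.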
